A study of Mus musculus with 2 samples.

Results

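The glucagon gene Gcg, the receptors Gcgr, Glp1r and Gipr, the peptidase gene Dpp4 and the carrier protein genes Ttr and Gc were followed through the cell classes of neonatal mouse islets. These 7 genes were chosen by name from the 31053 genes of the deposited count tables, with earlier results of these data known. All 7 were found, and all 7 had UMIs in both libraries. Islets came from female mice aged 2 weeks, either WT or Npc1-/- (KO), on the C57BL/6J background. The KO mice lack NPC1, the lysosomal cholesterol exporter, in every tissue and not in islet cells alone, and both genotypes came from matings of heterozygous mice. Each genotype gave 1 library, made from the pooled islets of 3 mice and dissociated with trypsin, so differences between animals cannot be seen. No test between the genotypes is possible with 1 library each, no p-value is given, and all intervals below are 95% intervals that cover counting error only.

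Glucagon is cut from the proglucagon precursor, the product of Gcg, by the convertase PCSK2 in alpha cells, while PCSK1 releases GLP-1 from the same precursor in intestinal L cells. GLP-1 and GIP, the incretins, are gut hormones that raise glucose-dependent insulin secretion. Their receptors and the glucagon receptor are class B G-protein-coupled receptors that act through Gs and cyclic AMP. DPP4 is a membrane peptidase that inactivates GLP-1 and GIP by removing an N-terminal dipeptide. Transthyretin (Ttr) carries thyroxine and, with retinol-binding protein, retinol in plasma. The product of Gc is the vitamin D-binding protein, which also binds actin monomers and is known as an alpha cell gene in islets.

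Of 16215 deposited barcodes, 8897 were kept, 4628 in WT and 4269 in KO. WT cells that were kept had 94096566 UMIs in sum (median 18905 per cell) and KO cells 94392651 (median 21381). A cell was assigned to the hormone that led its UMIs where that hormone reached 10% of them, which gave 1833 WT and 1826 KO insulin-led cells (Ins1 and Ins2), 1048 and 857 Gcg-led cells, 189 and 141 Sst-led cells, and 411 and 442 PP-fold-led cells (Ppy and Pyy). Markers fixed for other cell types gave 426 WT and 422 KO endothelial cells, 245 and 257 stellate cells, and 52 and 32 macrophages. Another 424 WT and 292 KO cells lay outside these 7 classes, among them 141 B cells and 73 T cells in WT against 1 and 0 in KO. The Gcg-led cells carried the alpha cell transcription factor Irx1 at 152 CPM (counts scaled to 1000000 UMIs) in WT and 147 CPM in KO, against 1.93 and 1.48 CPM in insulin-led cells, and Irx2 at 145 and 140.0 CPM, against 2.15 and 3.19 CPM, so their markers fit the alpha cell name. Npc1 itself had 790 UMIs in WT (8.40 CPM) and 391 UMIs in KO (4.14 CPM). The changed part of the Npc1 allele was not located here, and a tag at the transcript's end can lie outside it. The libraries shared 12 deposited barcodes, of which 3 were kept in both, none in the same class.

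No upstream sequence was available here for Gipr or Ttr. Those of the hormone gene Gcg and of the receptor genes Gcgr and Glp1r are shown first. They are RefSeq sequences of the GRCm38.p6 build, written 5′ to 3′ on the gene's strand from 250 bases before the RefSeq start, and stopped where the GENCODE gene begins. Capitals mark a TATA box (TATAAA on the given strand), a forkhead core (TGTTTAC or TATTTAC on either strand) or a GC box (GGGCGG on either strand).
Gcg, chr2:62483654-62483903, minus strand: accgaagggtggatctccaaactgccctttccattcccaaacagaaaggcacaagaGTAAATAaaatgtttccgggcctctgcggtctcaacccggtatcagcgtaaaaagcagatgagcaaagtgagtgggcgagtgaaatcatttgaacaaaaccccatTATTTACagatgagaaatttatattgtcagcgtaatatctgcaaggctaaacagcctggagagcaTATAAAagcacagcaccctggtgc
Gcgr, chr11:120530477-120530698, plus strand: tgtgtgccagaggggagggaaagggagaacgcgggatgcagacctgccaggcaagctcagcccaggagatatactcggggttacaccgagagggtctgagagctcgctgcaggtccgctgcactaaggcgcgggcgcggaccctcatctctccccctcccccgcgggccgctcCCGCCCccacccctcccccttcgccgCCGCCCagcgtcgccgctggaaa
Glp1r, chr17:30901617-30901816, plus strand: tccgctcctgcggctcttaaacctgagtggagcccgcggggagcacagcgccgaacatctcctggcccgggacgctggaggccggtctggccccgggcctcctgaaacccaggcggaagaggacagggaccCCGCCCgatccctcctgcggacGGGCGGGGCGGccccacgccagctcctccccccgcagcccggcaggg
The Gcg window held a TATA box at -24 and forkhead cores at -194 and -89, counted back from the RefSeq start, and no GC box. Gcgr had 2 GC boxes and Glp1r had 3, and neither had a TATA box or a forkhead core. Over the whole 250 bases the GC content was 44.8% for Gcg, 70.4% for Gcgr and 73.2% for Glp1r, against a median of 52.4% over 32851 promoters. Of those promoters, 7.59% held the TATA box, 5.76% the forkhead core and 32.7% the GC box. The same window of Dpp4 held a TATA box at -227 with a GC content of 43.6%, and that of Gc held none of the 3 motifs and no CpG, with a GC content of 42%. A match is a description of letters, not a binding site.

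On GRCm38 the Gcg gene lies at chr2:62474530-62483650 on the minus strand, between Dpp4 (chr2:62330073-62412231) and Fap, both on the same strand. No protein-coding gene lies in the 62.3 kb between Dpp4 and Gcg or in the 17.3 kb between Gcg and Fap. Gcgr lies at chr11:120530699-120538986 and is overlapped by the antisense gene Gm11789. Glp1r lies at chr17:30901817-30940791, where AC174471.1 and AC165951.1 lie on the opposite strand, and Dpp4 is overlapped by the antisense gene Gm13561. Gipr lies at chr7:19156061-19166127 and Gc at chr5:89417522-89457898, with no overlapping gene. All of these overlapping genes lie on the opposite strand, and the sources used here do not state how strand was used in counting. Whether any reads of Gcgr, Glp1r and Dpp4 were shared with them was not tested.

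The 7 genes fell into 3 patterns by class, which were alike in WT and KO. Gcg and Ttr lay mostly in Gcg-led cells, with 94.9% of all Gcg UMIs in WT and 94.3% in KO, and 87.4% and 84.1% of all Ttr UMIs. The receptor genes lay mostly in insulin-led cells, with 89.9% and 89.5% of Gcgr UMIs, 93.2% and 95.4% of Glp1r UMIs and 78.6% and 77.5% of Gipr UMIs. Dpp4 and Gc were spread over several hormone classes. Insulin-led cells held 46.9% of Dpp4 UMIs in WT and 49.4% in KO, and Gcg-led cells 25.8% and 21.6%. Gc UMIs were shared between Gcg-led cells (54.6% and 51.9%) and PP-fold-led cells (34.2% and 34.5%). These shares depend on the number of cells in a class and on the RNA of each cell. Of all 94096566 UMIs of kept WT cells, insulin-led cells held 5.48e+07 and Gcg-led cells 1.85e+07. In KO they held 5.42e+07 and 1.72e+07 of 94392651.

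**Figure D1:**
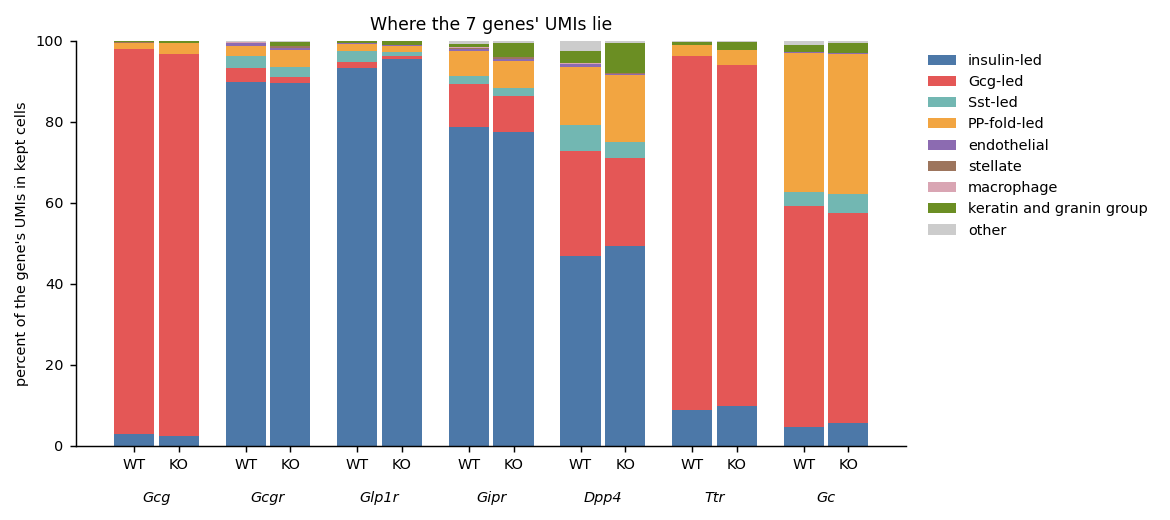
Percent of each gene's UMIs in kept cells (vertical axis) that lay in each cell class, for the WT and the KO library, with cells outside all named classes as other. Insulin-led cells held 93.2% and 95.4% of Glp1r UMIs, and Gcg-led cells held 94.9% and 94.3% of Gcg UMIs, a share set in part by the class rule.

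Since the class rule used Gcg itself, its level by class is a description and not a finding. Its level in Gcg-led cells was 306391 CPM in WT and 299524 in KO, where CPM are UMIs scaled to 1000000 per class and library. The median cell gave 30.7% of its UMIs to Gcg in WT and 30.2% in KO. The lowest such cell had 10.2% in WT and 10.4% in KO, next to the 10% limit, and the highest outside it had 9.43% and 9.92%. Just 17 WT and 9 KO barcodes led by Gcg lay between 8% and 12%. Gcg-led cells made up 22.6% of kept cells in WT (21.4 to 23.9%) and 20.1% in KO (18.9 to 21.3%), a KO over WT ratio of 0.887 (0.809 to 0.971). With 1 pool of mice per genotype, this ratio has no replicate check, and fewer such cells in the islet cannot be told apart from fewer recovered after dissociation. PP-fold-led cells had a ratio of 1.17 (1.02 to 1.34).

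Gcg UMIs were found in nearly every cell of every class. Endothelial cells, which do not make glucagon, had 1368 CPM in WT and 836 CPM in KO, and stellate cells 1233 and 1094 CPM. In insulin-led cells the summed level was 3279 CPM in WT and 2478 CPM in KO, but the median cell had 486 and 456 CPM. The 5% of insulin-led cells with the most Gcg held 86.2% of the class's Gcg UMIs in WT and 82.9% in KO. Gcg reached 5% of the UMIs in 32 insulin-led cells in WT (1.75%) and 24 in KO (1.31%). Their median doublet score was 0.370 and 0.428, against 0.0731 and 0.0681 over the whole class. Without the 45 WT and 34 KO insulin-led cells in which Gcg reached 1%, a cut by Gcg itself, the level was 499 and 472 CPM. On plain CPM this was under that of endothelial cells. Insulin-led cells were also split into 4 ranges of their Gcg share. With hormone genes left out of the totals, those below the highest range had 722, 1027 and 1260 CPM in WT and 689, 961 and 1179 CPM in KO. Endothelial cells had 1399 and 846 CPM on that scale, so in KO the order depended on scaling and on the range. PP-fold-led cells had 11087 and 15458 CPM of Gcg. There, 23 cells in WT (5.60%) and 45 in KO (10.2%) had Gcg at 5% or more of their UMIs, with median doublet scores of 0.0652 and 0.0517 against 0.0298 and 0.0321 over the class. After leaving out the 48 WT and 58 KO cells with Gcg at 1%, the level in PP-fold-led cells was 1004 and 746 CPM.

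The glucagon receptor gene Gcgr was measured almost wholly in insulin-led cells. It had 588 UMIs in WT (10.7 CPM, 9.88 to 11.6) and 605 UMIs in KO (11.2 CPM, 10.3 to 12.1). In Gcg-led cells only 22 WT and 10 KO UMIs were found, 1.19 and 0.583 CPM, which is close to the 0.957 and 0.818 CPM of endothelial cells. The insulin-led level was 9.02 times the Gcg-led level in WT (5.90 to 14.5) and 19.2 times in KO (10.4 to 40.2). Sst-led cells came second in both libraries, with 20 UMIs in WT (7.37 CPM) and 17 in KO (6.99 CPM). They lay above PP-fold-led cells, at 1.96 and 2.99 CPM, in both libraries. Whether they lay below insulin-led cells depended on scaling, since insulin takes up much of that class's UMIs. On plain CPM the classes could not be separated. With hormone genes left out of the totals, insulin-led cells had 25.4 CPM (23.4 to 27.6) in WT and 25.3 CPM (23.3 to 27.4) in KO, and Sst-led cells 10.9 CPM (6.66 to 16.8) and 10.4 CPM (6.04 to 16.6). Gcg-led cells had 1.83 and 0.892 CPM of Gcgr on that scale. Each cell was then thinned to 5000 UMIs so that classes of unlike depth could be compared, and cells with fewer UMIs were left out. A Gcgr UMI was found in 6.20% of insulin-led cells in WT and 4.93% in KO, against 0.691% and 0.476% of Gcg-led cells and 1.06% and 0.513% of endothelial cells. At 2500 UMIs the insulin-led shares were 1.87% in WT and 2.58% in KO, so which library had the larger share depended on depth. Unthinned, the shares in insulin-led cells were 24.5% and 25.7%, at a median depth of 30417 and 30094 UMIs, 2.00% and 1.17% in Gcg-led cells at 17143.5 and 19110 UMIs, and 0.939% and 0.948% in endothelial cells at 7596.5 and 9098 UMIs. At the common depth of 5000 UMIs the intervals of the Gcg-led and endothelial shares overlapped, so a Gcgr level above background was not detectable in Gcg-led cells.

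Glp1r, the GLP-1 receptor gene, had the largest share of UMIs in insulin-led cells among the 7 genes. It had 331 UMIs in WT (6.04 CPM, 5.41 to 6.73) and 272 in KO (5.02 CPM, 4.44 to 5.66). Gcg-led cells had 5 and 2 UMIs, 0.270 and 0.117 CPM, beside 1 UMI in endothelial cells of each library. No stellate cell or macrophage had a Glp1r UMI, which allows up to 1.68 and 1.70 CPM in stellate cells and 4.80 and 5.62 CPM in macrophages. Sst-led cells had 10 UMIs in WT (3.68 CPM, 1.77 to 6.77) and 3 in KO (1.23 CPM, 0.254 to 3.61). On plain CPM the insulin-led level was separated from the Sst-led one only in KO. With hormone genes left out of the totals it was separated in both libraries, at 14.3 CPM (12.8 to 15.9) against 5.45 CPM (2.61 to 10.0) in WT and 11.4 CPM (10.1 to 12.8) against 1.83 CPM (0.377 to 5.35) in KO. After thinning, 3.27% of insulin-led cells in WT (2.49 to 4.19%) and 2.38% in KO (1.73 to 3.20%) had a Glp1r UMI, and 0.264% and 0% of endothelial cells. The endothelial 0 of 390 cells allows up to 0.769% by the limit of 3 counts. At 2500 UMIs the insulin-led shares were 1.04% in WT and 1.26% in KO, so which library had the larger share depended on depth.

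Gipr, the GIP receptor gene, was found in all 4 hormone classes. In insulin-led cells it had 2623 UMIs in WT (47.9 CPM, 46.1 to 49.7) and 2943 in KO (54.3 CPM, 52.4 to 56.3). Gcg-led cells had 19.3 CPM in WT and 19.6 CPM in KO, 4.23 times the endothelial level in WT (2.67 to 7.12) and 4.16 times in KO (2.73 to 6.65). Gipr thus lay above the endothelial level in Gcg-led cells, where Gcgr and Glp1r could not be separated from it. Sst-led cells had 24.3 and 31.7 CPM and PP-fold-led cells 25.3 and 26.6 CPM. These neighbours could not be separated from each other. In WT, neither could Sst-led and Gcg-led cells. The insulin-led level was 2.49 times the Gcg-led one in WT (2.22 to 2.79) and 2.78 times in KO (2.48 to 3.12). Without hormone genes in the totals the levels were 113 against 29.6 CPM in WT and 123 against 30.0 CPM in KO, a larger gap. After thinning, 19.7% of insulin-led cells in WT and 25.2% in KO had a Gipr UMI, against 9.58% and 9.63% of Gcg-led cells and 1.32% and 2.31% of endothelial cells. The insulin-led shares were closer at 2500 UMIs, with 11.2% in WT and 12.7% in KO, and unthinned, with 71.4% and 74.7%.

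At 5000 UMIs a cell, at least 1 of the 3 receptor genes was found in 27.2% of insulin-led cells in WT (25.2 to 29.3%) and 30.6% in KO (28.5 to 32.8%). A Gipr UMI was as frequent with a Gcgr UMI as without in WT, 19.6% of 112 cells against 19.7% of 1695 cells. In KO, the shares were 22.5% of 89 cells and 25.4% of 1715 cells. Of Glp1r-positive cells, 16.9% had Gipr in WT (8.44 to 29.0%) and 34.9% in KO (21.0 to 50.9%), beside 19.8% and 25% of Glp1r-negative cells. The intervals overlap in each library, and with 59 and 43 Glp1r-positive cells no link between the receptors was detectable at this depth.

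**Figure D2:**
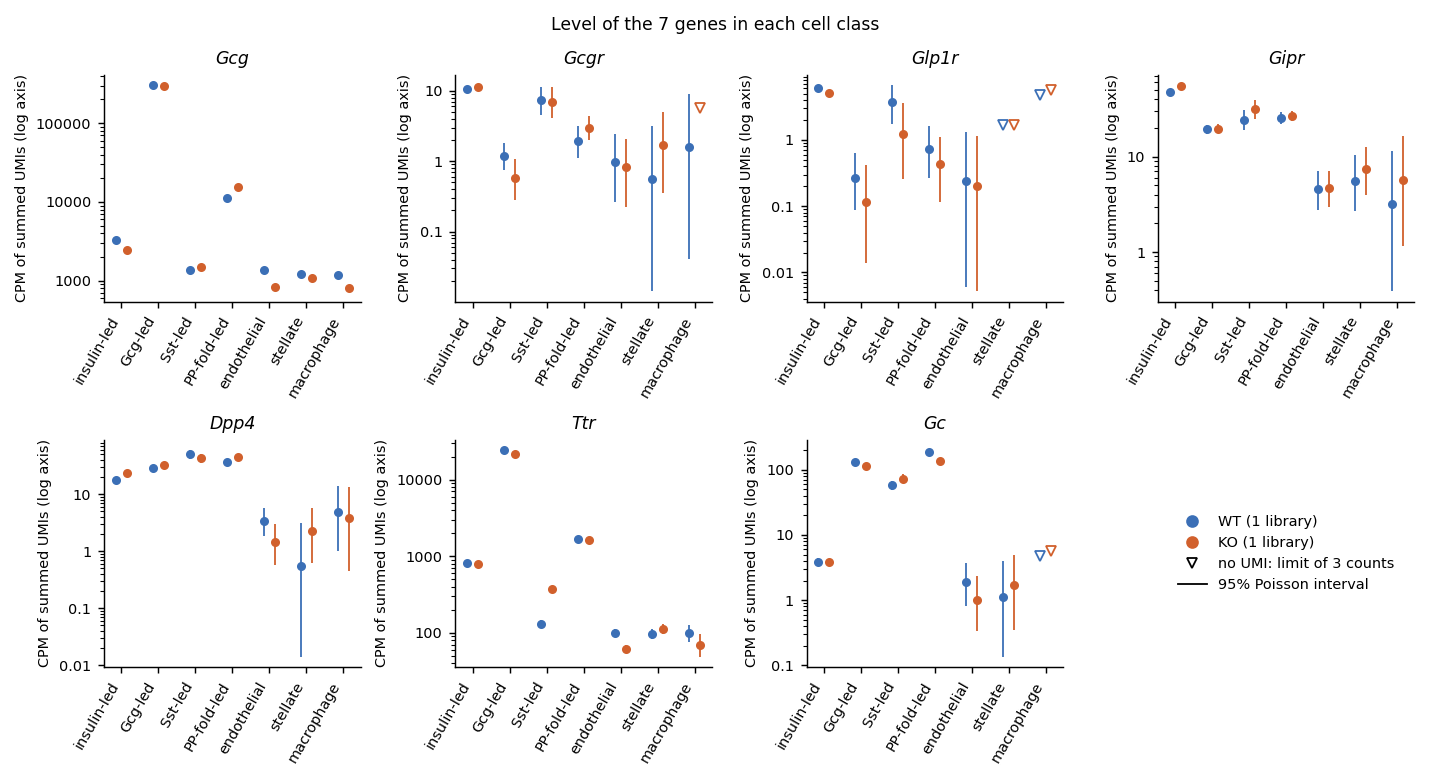
Level of the 7 genes in each cell class as CPM of summed UMIs on log axes, for the WT and the KO library, with 95% Poisson intervals and open triangles at the limit of 3 counts where no UMI was found. Gcgr and Glp1r in Gcg-led cells lie at the level of endothelial cells, while Gipr and Dpp4 in Gcg-led cells lie above it.

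Dpp4 was found in all 4 hormone classes at levels above stroma. Sst-led cells had 49.7 CPM in WT (41.7 to 58.9) and 42.4 CPM in KO (34.6 to 51.4), and PP-fold-led cells 36.4 and 44.7 CPM. Gcg-led cells had 28.9 and 31.9 CPM, and insulin-led cells 17.7 and 23.2 CPM. Endothelial cells had 14 UMIs in WT and 7 in KO, 3.35 and 1.43 CPM. The highest class was Sst-led in WT and PP-fold-led in KO, and in KO these classes could not be separated. The order of Gcg-led and insulin-led cells depended on scaling, because insulin took up 51.9% of the UMIs of insulin-led cells in WT and 49.3% in KO. Gcg-led cells had 1.63 times the CPM of insulin-led cells in WT and 1.38 times in KO. When the hormone genes were left out of the totals, Gcg-led and insulin-led cells had 44.4 and 42 CPM in WT, and 48.9 and 52.4 CPM in KO. Sst-led cells (73.6 and 62.8 CPM) and PP-fold-led cells (63.0 and 74.7 CPM) stayed above both on this scale. Gcg-led cells were then split into 4 ranges of their Gcg share of UMIs. The range with the lowest share had 41.0 CPM of Dpp4 in WT and 48.1 CPM in KO, and the range with the highest share 16.9 and 25.9 CPM. Gcg itself takes up part of each total, and without the hormone genes these values were 56.3 and 29.0 CPM in WT and 66.0 and 44.8 CPM in KO. Dpp4 was thus lower in the range richest in Gcg than in the poorest, on either scale and in both libraries.

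Ttr had its highest level in Gcg-led cells, with 24157 CPM in WT and 21288 CPM in KO. The median Gcg-led cell had 20252 and 16870 CPM. PP-fold-led cells had 1656 and 1652 CPM, insulin-led cells 820 and 792 CPM, and Sst-led cells 131 and 375 CPM. Endothelial cells had 101 and 61.2 CPM, and after thinning a Ttr UMI was found in 29.6% and 30.0% of them. Ttr was also set against Gcg in the same cells, since both are abundant in Gcg-led cells, where 78.8 Ttr UMIs were found per 1000 Gcg UMIs in WT and 71.1 in KO. Endothelial cells had 73.6 (66.5 to 81.3) and 73.2 (64.9 to 82.3), and macrophages 84.4 and 86.0. Stellate cells had 77.7 in WT and 102 in KO (88.0 to 118). Insulin-led cells had 250 and 320. Without the cells with Gcg at 1%, a choice that lowers the Gcg count itself, they had 1217 (1197 to 1237) and 1456 (1432 to 1479). PP-fold-led cells stood at 149 and 107, and without those cells at 1097 and 1334. Of 4 ranges of the Gcg share within insulin-led cells, the one with the least Gcg, at 294 and 290 CPM, still had 607 CPM of Ttr in WT and 690 CPM in KO. The next 2 ranges had 588 and 626 CPM in WT and 669 and 687 CPM in KO, so Ttr did not follow Gcg over these lower ranges. In the range with the most Gcg, at 12446.5 CPM in WT and 11244.8 CPM in KO, Ttr was higher, with 1502 and 1259 CPM. The part of free RNA in these levels was not tested.

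**Figure D3:**
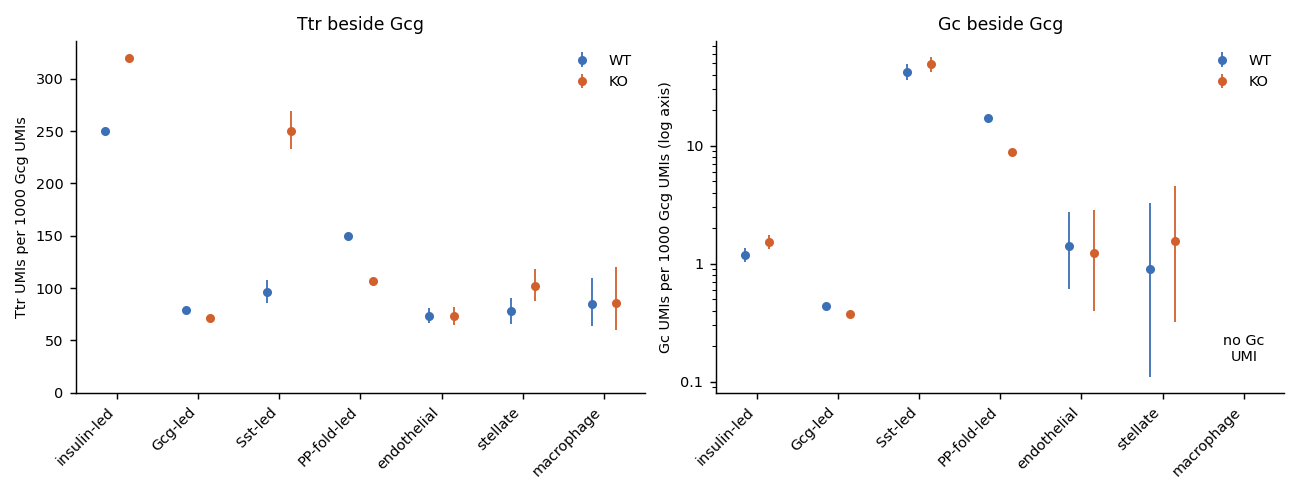
Ttr (left, linear axis) and Gc (right, log axis) UMIs per 1000 Gcg UMIs in each cell class, with 95% intervals, for the WT and the KO library. Endothelial cells lie close to the Gcg-led ratio of Ttr to Gcg (73.6 and 73.2 against 78.8 and 71.1), insulin-led cells lie above it at 250 and 320, and no Gc UMI was found in macrophages.

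Gc had its highest level in PP-fold-led cells, not in Gcg-led cells, in both libraries. It had 190 CPM in WT (181 to 200) and 137 CPM in KO (130 to 145) there, against 134 CPM (129 to 139) and 113 CPM (108 to 118) in Gcg-led cells. Sst-led cells had 57.8 and 73.2 CPM. Insulin-led cells had 213 and 205 UMIs, 3.89 and 3.79 CPM, and endothelial cells 8 and 5 UMIs, 1.91 and 1.02 CPM. Without the cells with Gcg at 1%, insulin-led cells had 2.59 and 3.22 CPM, while PP-fold-led and Sst-led cells kept 192 and 140 CPM, and 58.6 and 72.5 CPM. This choice leaves out cells by Gcg only. Sst-led cells gave 11.1% of their UMIs to Ppy and Pyy in WT and 11.8% in KO, against 35.5% and 31.8% in PP-fold-led cells. The part of PP-fold RNA in the Sst-led Gc level was not tested. Gc was found in PP-fold-led cells both poor and rich in Gcg. Over 4 ranges by Gcg share from lowest to highest, these cells had 257, 181, 149 and 190 CPM of Gc in WT, and 169, 124, 99.3 and 130 CPM in KO. Per 1000 Gcg UMIs, Gc stood at 0.437 and 0.376 in Gcg-led cells, 17.2 and 8.89 in PP-fold-led cells, and 42.3 and 48.9 in Sst-led cells. After thinning, a Gc UMI was found in 46.3% of PP-fold-led cells in WT and 36.7% in KO, 41.3% and 35.0% of Gcg-led cells, 14.4% and 25.2% of Sst-led cells, and 1.06% and 0.256% of endothelial cells.

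Within Gcg-led cells, the carrier genes were linked to Gcg to unlike degrees. Over single cells, Pearson's r of Gcg and Ttr was 0.31 over 1048 cells in WT and 0.27 over 857 cells in KO, and Spearman's rho 0.29 in each. For Ttr and Gc, r was 0.28 and 0.31, and for Gcg and Gc 0.06 and 0.08. Cells of 1 library share its depth and free RNA, so these values describe the 2 libraries. Over the 4 ranges of the Gcg share, Ttr went from 16762 CPM in the lowest to 29723 CPM in the highest in WT, and from 15254 to 27813 CPM in KO. Gc differed less between ranges, with 125, 136, 150 and 123 CPM from lowest to highest in WT and 104, 111, 116 and 120 CPM in KO. Gcg takes up part of each total. Without hormone genes in the totals, Gc had 172, 201, 236 and 212 CPM in WT. In KO, Gc had 143, 164, 182 and 208 CPM on that scale, higher at each step. Ttr then went from 23018 to 51134 CPM in WT and from 20932 to 48167 CPM in KO.

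In the study, alpha and beta cells count as immature by PP cell markers such as Ppy and Pyy, so the genes were also read by the share of UMIs given to these PP-fold hormones. In Gcg-led cells, the range limits, set on the cells of both libraries together, were 0.523, 1.44 and 3.57% of UMIs. The highest range held 229 of the WT cells and 248 of the KO cells. Ttr had 31294, 25313, 23412 and 15528 CPM from the lowest to the highest range in WT, and 27515, 22956, 21904 and 15968 CPM in KO. Ttr was thus lower at each step up in PP-fold share in both libraries. Gc went from 153 to 119 CPM in WT, and from 121 to 114 CPM in KO, where it was 176 and 184 CPM with hormone genes left out of the totals. Gipr had 20.4 and 19.6 CPM in the lowest and highest range in WT, and 19.8 and 18.4 CPM in KO. In the highest range of PP-fold share Ttr had nearly the same level in WT and KO, and the libraries were farthest apart in the lowest.

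In insulin-led cells, with limits of 0.0893, 0.541 and 1.56%, the lowest range held 556 WT and 359 KO cells and the highest 329 and 586. From the lowest to the highest range the median doublet score went from 0.0523 to 0.0932 in WT and from 0.0517 to 0.0806 in KO. The part of doublets in the levels below was not tested. Glp1r went from 7.33 CPM (6.13 to 8.70) to 3.54 CPM (2.42 to 4.99) in WT, and from 6.20 CPM (4.85 to 7.81) to 3.32 CPM (2.50 to 4.34) in KO. The intervals of the lowest and highest range did not overlap in either library. Gcgr went from 12.3 CPM (10.7 to 14.1) to 7.40 CPM (5.74 to 9.40) in WT. In KO, Gcgr went from 13.2 CPM (11.2 to 15.4) to 10.3 CPM (8.84 to 12), where the intervals overlapped on plain CPM. Without hormone genes in the totals, Gcgr was lower at each step in both libraries. On that scale it had 30.3, 26.5, 25.4 and 15.7 CPM in WT and 31.9, 28.3, 22.6 and 21.4 CPM in KO. Gipr differed less on plain CPM, with 48.3 CPM in the lowest and 42.1 CPM in the highest range in WT and 55.6 and 53.8 CPM in KO. With hormone genes left out of the totals, Gipr had 119, 118, 121 and 89.2 CPM from lowest to highest in WT, and 135, 132, 121 and 111 CPM in KO, lower at each step in KO. Ucn3, a gene of mature beta cells, went from 305 to 73.5 CPM in WT and from 266 to 57.1 CPM in KO over the same ranges. Within the highest range the Glp1r intervals of WT and KO overlapped, as they did in the lowest.

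**Figure D4:**
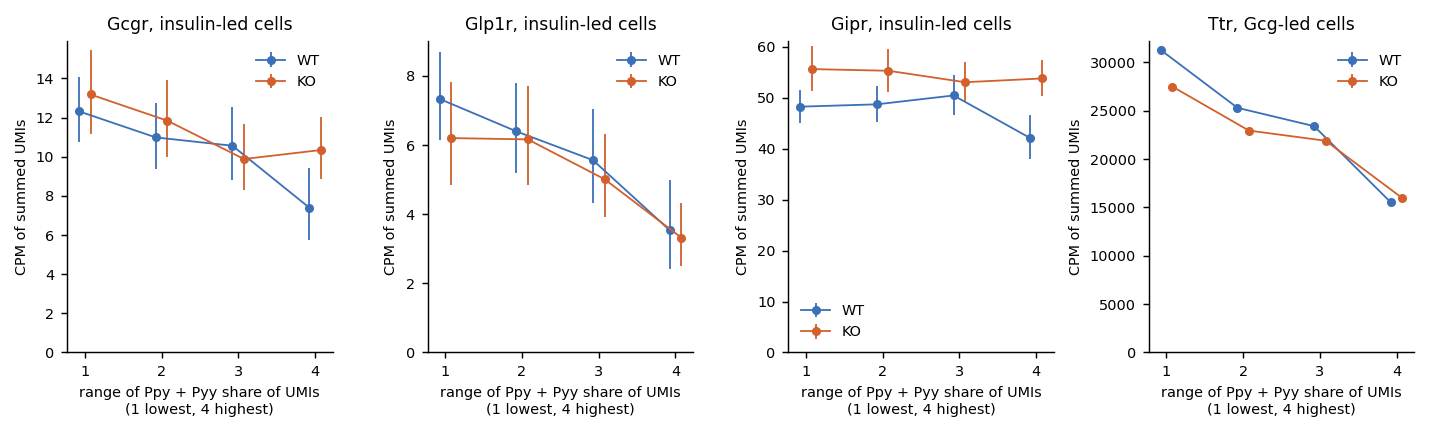
CPM of summed UMIs with 95% Poisson intervals in 4 ranges of the Ppy and Pyy share of UMIs (1 lowest, 4 highest), for Gcgr, Glp1r and Gipr in insulin-led cells and Ttr in Gcg-led cells, in WT and KO. Glp1r goes from 7.33 to 3.54 CPM in WT and from 6.20 to 3.32 CPM in KO, Ttr from 31294 to 15528 and from 27515 to 15968 CPM, and Gipr lies between 42.1 and 55.6 CPM on this scale.

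The KO and WT libraries were compared in each class by the log2 ratio of CPM, given relative to the median gene of that class, whose own shift was 0.12 in insulin-led, 0.03 in Gcg-led, 0.01 in Sst-led and 0.06 in PP-fold-led cells. A gene was called past 1.5-fold among those with 5 CPM or more in a library. In Gcg-led cells 5 of the 7 genes, Gcg among them, reached 5 CPM and none was past 1.5-fold. Of all 9897 genes tested there, 0.707% were higher and 1.07% lower in KO past that fold. In insulin-led cells 6 of the 7 reached 5 CPM and again none was past it, where 1.3% of 8858 genes were higher and 1.35% lower. In PP-fold-led cells the count was 0 of 5, where 2.02% were higher and 2.37% lower. In Sst-led cells it was 1 of 6, where 6.31% were higher and 5.6% lower. The members thus gave 1 call in the 4 hormone classes. Gcg is counted in each of these classes, although the class rule bounds its level there, so its own ratios are a description.

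Among the receptors, Glp1r in insulin-led cells had a log2 ratio of -0.39 (-0.62 to -0.15), Gcgr -0.06 (-0.23 to 0.10) and Gipr 0.06 (-0.01 to 0.14). Only for Glp1r did the interval leave out 0, and its ratio was negative in all 13 alternatives tried, between -0.46 and -0.27. With cells thinned to 2500 UMIs, however, the share of insulin-led cells with a Glp1r UMI was not lower in KO (1.04% in WT, 1.26% in KO). The share of insulin-led cells in the highest PP-fold range, where Glp1r was lowest, was larger in KO, and its part in the ratio was not tested. Gipr in Gcg-led cells had -0.01 (-0.22 to 0.21). In Sst-led cells Gipr had 0.37 (-0.12 to 0.87), which rests on 66 and 77 UMIs. Gcgr and Glp1r in Gcg-led cells were under 5 CPM and gave no comparison.

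Dpp4 was somewhat higher in KO insulin-led cells, with a log2 ratio of 0.27 (0.15 to 0.39), positive in all 13 alternatives. It had 0.12 (-0.06 to 0.29) in Gcg-led cells, 0.23 (0.01 to 0.45) in PP-fold-led cells and -0.24 (-0.63 to 0.14) in Sst-led cells. Gc had -0.28 (-0.36 to -0.19) in Gcg-led and -0.53 (-0.64 to -0.42) in PP-fold-led cells, negative in all 13 alternatives for both. In Sst-led cells Gc had 0.33 (0.01 to 0.65). Ttr had -0.21 (-0.22 to -0.21) in Gcg-led cells, negative in all 13 alternatives, and -0.17 in insulin-led and -0.07 in PP-fold-led cells. The highest PP-fold range of Gcg-led cells, where Ttr was lowest, held 229 of 1048 WT and 248 of 857 KO cells. The part of this in the Gcg-led ratio was not tested. Without the cells with Gcg at 1%, the Ttr ratio was 0.06 in insulin-led and -0.21 in PP-fold-led cells. All of these ratios lie within 1.5-fold and have no replicate check.

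The single call was Ttr in Sst-led cells, with 357 UMIs in WT and 913 in KO and a log2 ratio of 1.5 (1.32 to 1.68). It did not describe the class as a whole. The median Sst-led cell had 89.1 CPM in WT and 92.5 CPM in KO, the highest cell 1783 and 34071 CPM, and the 5 cells with the most Ttr held 69.7% of the KO UMIs. Without the 5 highest cells the level was 102 CPM in WT and 121 CPM in KO. Gcg reached 94038 CPM in the highest KO cell. The call was lost without the 2 WT and 2 KO cells with Gcg at 1% (log2 ratio 0.41), and at a hormone limit of 20% the ratio was -0.051.

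Gcg itself had a log2 ratio of -0.06 in Gcg-led cells. Its ratios of -0.52 in insulin-led and 0.42 in PP-fold-led cells rest on few cells rich in Gcg, and were -0.20 and -0.49 without those with Gcg at 1%. In endothelial cells Gcg and Ttr were both past 1.5-fold, with -0.71 (-0.77 to -0.66) and -0.72 (-0.94 to -0.51), where 4.74% of 10130 genes were lower. Their ratio to each other was 73.6 and 73.2 Ttr UMIs per 1000 Gcg UMIs. Both calls rest in part on few WT cells. The 5% of endothelial cells with the most Gcg held 32.3% of its UMIs in WT and 12.3% in KO. For Ttr the shares were 48.9% and 21.7%. The median endothelial cell had 1062 and 841 CPM of Gcg, and a Ttr UMI was found in 46.2% and 50% of these cells without thinning. None of 2 members was higher there, where 2.27% of genes were. In stellate cells 0 of 3 members were past 1.5-fold in either direction, where 6.86% of genes were higher and 9.23% lower. In macrophages 1 of 3 was, Gipr, higher in KO on 2 and 3 UMIs, where 19% were higher and 21.4% lower. Gipr had 3.20 CPM in WT and 5.62 CPM in KO there. It reached the limit of 5 CPM in KO only, so it could only be called higher.

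**Figure D5:**
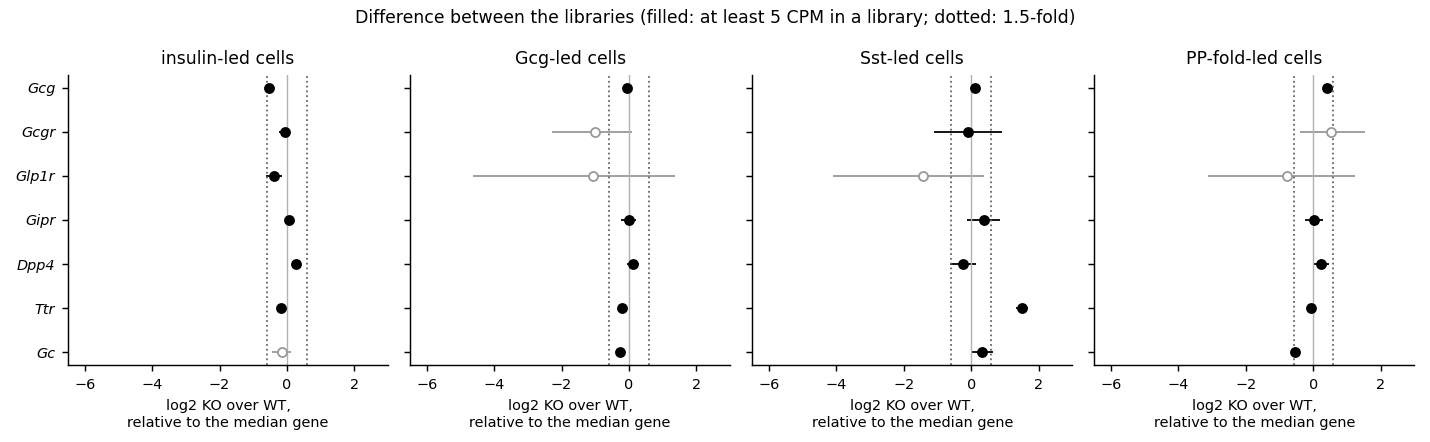
Log2 ratio of KO over WT for the 7 genes in the 4 hormone classes, relative to the median gene of each class, with 95% intervals of the counts. Filled points have at least 5 CPM in a library, dotted lines mark 1.5-fold, and of the filled points only Ttr in Sst-led cells (1.5) lies beyond them.

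The other genes of the pathway were read from lists of named genes in the contrast of Gcg-led over insulin-led cells, given relative to the median gene, which was 0.55 higher on the log2 scale in WT and 0.45 in KO. Of 9788 genes tested, 11.7% were higher and 10.6% lower in Gcg-led cells past 1.5-fold in both libraries. On this scale Gcgr had -3.69 in WT and -4.64 in KO, Glp1r -4.90 and -5.56, and Gipr -1.86 and -1.92. Ttr had 4.33 and 4.30, Gc 4.55 and 4.44, and Dpp4 0.15 and 0.01. Of 18 alpha cell genes tested 12 were higher and 0 lower, among them Irx1 with 5.74 and 6.18, Irx2 with 5.52 and 5.0, and the glutamine transporter gene Slc38a5 with 4.84 and 5.05.

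Among 9 genes for processing and secretion of proglucagon, 2 were higher and 3 lower in Gcg-led cells. Pcsk2, the convertase that yields glucagon, was higher with 0.90 and 0.74, and Pam, which amidates peptides, with 1.20 and 0.89. Pcsk1, the convertase that yields GLP-1, was lower with -4.95 and -5.40. It had 11 and 7.11 CPM in Gcg-led cells, beside 12.7 and 5.52 CPM in endothelial cells and 233 and 221 CPM in insulin-led cells. The granins Scg2 (-1.72 and -1.51) and Chga (-0.95 and -1.16) were also lower. Between the libraries, 1 of the 9 was past 1.5-fold in Gcg-led cells, Pcsk1 with -0.66, where 1.07% of all genes were lower. The endothelial Pcsk1 level was also lower in KO, and its part in this ratio was not tested.

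Of 16 related ligands and receptors, 6 were higher and 5 lower in Gcg-led cells. The somatostatin receptor gene Sstr2 had 6.22 and 6.40, the lipid receptor gene Gpr119 1.85 and 2.27, and Vipr1, a receptor gene for VIP, 1.73 and 1.77. Lower were the adrenergic receptor gene Adra2a (-4.91 and -4.50), the galanin receptor gene Galr1 (-4.29 and -4.05), Igf1r (-1.82 and -1.79) and the fatty acid receptor gene Ffar1 (-1.60 and -1.52), as was Adora1 under 20 CPM. Of 41 genes of cyclic AMP signalling, 10 were higher and 5 lower. The adenylyl cyclase gene Adcy1 had 5.50 and 5.49, the phosphodiesterase gene Pde4d 3.58 and 2.73, Gnas, which encodes the Gs alpha subunit, 1.92 and 1.84, and Gnai1, which encodes an inhibitory alpha subunit, 1.45 and 1.19. Lower were Prkar2b, a regulatory subunit of protein kinase A (-1.92 and -1.89), Pkib, an inhibitor of that kinase (-1.49 and -1.46), Adcy9 (-0.85 and -0.80), Pde8a (-0.65 and -0.59) and, under 20 CPM, Grk5. Between the libraries, 3 of 37 cyclic AMP genes were higher in KO insulin-led cells past 1.5-fold and 0 lower, where 1.3% of all genes were higher and 1.35% lower. These were Rgs2 (0.82), Pde10a (0.60) and Sik2 (0.59), and in Gcg-led cells 0 of 41 were higher and 1 lower, Pde10a (-0.59). Of the related receptors, Gpr119 was lower in KO insulin-led cells (-0.61), 1 of 12 tested. The genes named between the libraries and those under 20 CPM were chosen after their values were seen.

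Of 9 peptidases of the DPP4 family and related, 3 were higher and 3 lower in Gcg-led cells, with Dpp10 at 2.46 and 3.09, Dpp3 at -1.02 and -0.76 and Anpep at -0.80 and -1.01, and with Dpp6 higher and Dpp7 lower under 20 CPM. Of 7 carrier proteins and partners, 2 were higher, Lrp1 and Rxra, both under 20 CPM, and 2 lower, Dio1, a deiodinase gene, with -1.67 and -1.43, and Rtn4 with -1.76 and -1.52. Of all 9788 genes, 11.7% were higher and 10.6% lower in Gcg-led than in insulin-led cells. In Gcg-led cells, none of the peptidases and alpha cell genes was past 1.5-fold between the libraries. Of 10 carrier genes 0 were higher and 2 lower in KO, where 0.707% of all 9897 genes were higher and 1.07% lower. The 2 were Alb with -0.90 and Serpina7 with -0.59, which lay at 5.35 and 5.52 CPM in WT. Both reached the limit of 5 CPM in WT only, so they could only be called lower.

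Genes with the pattern most like each member were found by Pearson's r of log2 CPM over the 14 sums of 7 classes and 2 libraries, among 9581 genes. These sums share libraries and free RNA, and the values are a description. Closest to Gcg were Igsf21 (0.97) and Ttr (0.97), followed by Irx1, Vgf and Pou3f4. Closest to Gcgr were P2ry1 (0.98), a purinergic receptor gene, and Rasgrf1 (0.95), both also among the 5 closest to Glp1r, and Gcgr and Glp1r had an r of 0.91 with each other. Gipr was closest to Syt4 (0.97) and Fbxo2 (0.97), Dpp4 to Mapk15 (0.99) and 1700019D03Rik (0.99), and Gc to Cpq (0.98) and Wwc1 (0.98).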

How the data were processed

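Single-cell RNA was counted as unique molecular identifiers (UMIs) with a Chromium kit for transcript ends, whose version differs between the labels and the study's methods. Values deposited by the authors are UMI counts of each gene in each barcode, not normalized, made with Cell Ranger 3.1.0 on mm10, and Seurat 4.0.3 is also named in the submitters' processing notes. The study's limits were applied here: over 1000 genes, under 50000 UMIs, mitochondrial share under 10% and haemoglobin share at most 0.1%. The study's removal of doublets names no caller and was not repeated, and Scrublet (scanpy 1.11.5) scores served an alternative and as description. Class rules are given in the text, with 3 or more detected markers and more than of any other list for endothelial cells, stellate cells and macrophages. UMIs were summed by library and class into CPM with exact Poisson intervals. Ratios have conditional binomial intervals and shares Clopper-Pearson intervals, and an absent gene allows up to 3 counts. Log2 ratios had 0.5 counts added and were set relative to the median gene with at least 5 CPM. The code was tested on simulated data. Alternatives were other cell filters, hormone limits, scalings (edgeR 4.0.16), pseudocounts and thinning depths. The members and gene lists were chosen with earlier results of these data known. Genes of a list were named from 20 CPM by size of the class difference, up to 4 in each direction, and some genes of the lists are counted but not reported here by name. Analyses used Python 3.11.15, numpy 2.4.6 and scipy 1.17.1.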

Additional observations from a re-analysis of the deposited data

Results flagged for a closer look

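The log2 ratio of KO over WT pointed in opposite directions in different hormone classes for Gcg, Ttr and Gc, and none of these differences was tested, since each genotype has 1 library. Gcg had 0.42 in PP-fold-led and -0.52 in insulin-led cells, and without the cells with Gcg at 1% of UMIs the former was -0.49. Ttr had 1.5 in Sst-led and -0.21 in Gcg-led cells, and Gc had 0.33 in Sst-led and -0.53 in PP-fold-led cells.

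The receptor genes were also found in the 153 WT and 343 KO insulin-led barcodes over 50000 UMIs, which enter no comparison of the report. Gcgr had 11.2 CPM in WT and 11.8 CPM in KO, Glp1r 4.58 and 3.95 CPM, and Gipr 48.1 and 61.8 CPM.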

How the results depend on the processing

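Of 357 log2 ratios computed under alternatives, 291 stayed within the 95% interval of the reported ratio and 65 left it. The remaining 1, that of Ttr in Sst-led cells, was past 1.5-fold and changed sign at a hormone limit of 20% (-0.051). Of ratios within 1.5-fold, Gcg in insulin-led cells turned to 0.27 without the highest doublet scores, and Gcg in PP-fold-led cells to -0.49 without cells with Gcg at 1%. At a hormone limit of 20%, Gcg in Sst-led cells went from 0.12 to -1.14, past 1.5-fold, and Gc in PP-fold-led cells from -0.53 to -0.61, also past it. With no second hormone at 1%, Ttr in insulin-led cells went from -0.17 to 0.13, and Gcgr in PP-fold-led cells, under 5 CPM, from 0.53 to -1.06. Gc in insulin-led cells, under 5 CPM, turned from -0.16 to 0.31 without the highest doublet scores. Ttr in PP-fold-led cells turned from -0.07 to 0.05 under the looser cell filter. Further ratios whose intervals held 0 changed sign, among them Gcgr in insulin-led cells. The 1 pair of gene and hormone class past 1.5-fold became 2 under the stricter cell filter and with totals without hormone genes, 3 at a hormone limit of 20%, 5 with no lower limit on expression, and 0 without cells with Gcg at 1% outside Gcg-led cells, an alternative chosen after seeing the data. In Gcg-led cells 2 genes, Gcgr and Glp1r, were past it with no lower limit, both lower and under 5 CPM. No value was obtained for Sst-led cells with no second hormone at 1%, which left under 20 cells in a library. The highest class was the same in WT and KO for 6 of the 7 genes, Dpp4 being the exception. Dpp4 was highest in Sst-led cells of both libraries without the highest doublet scores and at a hormone limit of 5%. With no second hormone at 1%, where Sst-led cells had no value to compare, Dpp4 was highest in Gcg-led cells of both. The PP-fold-led level in KO was then 29.5 CPM. Depth limits Gcgr and Glp1r outside insulin-led cells, where at most 28 UMIs were found in a class. No paired analysis was possible because each genotype has 1 library and no test was run.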

Other observations

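Gipr was higher in insulin-led and Gcg-led barcodes outside the mitochondrial limit than in kept cells, but in KO Gcg-led barcodes the intervals overlapped. In the 1319 WT and 878 KO insulin-led barcodes with 10% or more mitochondrial UMIs, Gipr had 129 CPM (117 to 142) in WT and 128 CPM (112 to 145) in KO, on 425 and 232 UMIs. Kept insulin-led cells had 47.9 and 54.3 CPM, on 2623 and 2943 UMIs. In the 56 WT and 48 KO Gcg-led barcodes of this kind, Gipr had 48.8 CPM (30.9 to 73.2) and 38.6 CPM (21.1 to 64.8), on 23 and 14 UMIs. Kept Gcg-led cells had 19.3 CPM (17.3 to 21.4) and 19.6 CPM (17.5 to 21.8). Gcgr in the insulin-led barcodes outside the limit had 15.5 CPM (11.5 to 20.3) and 17.6 CPM (12 to 24.8), on 51 and 32 UMIs. These insulin-led barcodes held far fewer UMIs each than kept cells, and the part of depth in the levels was not tested.

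Outside the 7 classes, some cells met the duct marker list but carried the granin gene Chgb, at 11305 CPM in WT and 29891 CPM in KO. On plain CPM they had Dpp4 above all 4 hormone classes, 90.7 CPM over 50 WT cells (69.7 to 116) and 94.3 CPM over 121 KO cells (81.3 to 109). Without hormone genes in the totals they had 103 CPM (79.4 to 132) in WT, which overlapped the 73.6 CPM (61.7 to 87.1) of Sst-led cells. In KO they had 102 CPM (88.2 to 118) on that scale, above the highest hormone class, PP-fold-led, at 74.7 CPM (67.7 to 82.2). They also had 38.9 and 64.7 CPM of Gipr, and 5765 and 3904 CPM of Ttr, at 242 and 404 Ttr UMIs per 1000 Gcg UMIs. Among the 73 T cells of WT, which the KO library lacked, Dpp4, also known as the T cell surface antigen CD26, had 44.3 CPM on 18 UMIs (26.2 to 70.0), and among the 141 WT B cells 25.1 CPM on 19 UMIs.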
